A study of Mus musculus with 13 samples.

Results

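The 9 genes described here encode basic leucine zipper transcription factors of the AP-1 group: Fos, Fosb and Fosl2 (the Fos family), Jun, Junb and Jund (the Jun family), and Atf3, Batf and Maff, which are related to them. They were taken by name from a count table of 54838 mouse genes, whose Ensembl identifiers were matched to GENCODE M21 symbols. All 9 are in the table, and all 9 were among the 17795 genes that passed the filter on low counts. Atf3 passed only through its level in the NPmut group described below. The table holds RNA-Seq counts from sorted Lin- cKit+ bone marrow cells, a population of hematopoietic stem and progenitor cells (HSPCs), from 13 mice, 50000 cells for each RNA extraction. Control mice (n = 3) carried only Mx1-Cre, p53mut mice (n = 3) carried Mx1-Cre and p53 R172H/+, NrasG12D mice (n = 3) carried Mx1-Cre and Nras G12D/+, and NPmut mice (n = 4) carried both mutant alleles with Mx1-Cre. Each mutant allele is expressed from its own locus once Cre removes a stop cassette, and Mx1-Cre is driven by an interferon-inducible promoter that is not restricted to blood cells. The 9 control, p53mut and NrasG12D mice received 3 injections of 100 µg pI:pC, a synthetic RNA that induces interferon, at about 6 weeks of age. NPmut mice are labelled as untreated and were sampled when moribund, and the study found both alleles recombined in their marrow without injection. In every comparison with NPmut, the double mutation, the missing injections and the terminal disease therefore cannot be told apart. Libraries held between 12576174 and 29124022 counts.

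AP-1 is a dimer. Fos proteins cannot pair with each other and need a Jun partner, whereas Jun proteins can pair among themselves, and both kinds of dimer bind the TGACTCA element (TRE) or the related TGACGTCA element (CRE). Most of the genes are immediate-early genes: growth factors, cytokines, Ras to ERK signaling and cell stress switch on their transcription from factors already present in the cell, and the transcripts are short-lived. In blood cells, Jun, Junb and Fos take part in monocyte and macrophage differentiation, Junb restrains the expansion of myeloid progenitors, Batf acts in lymphoid and dendritic cells, Atf3 is a stress-response factor that limits inflammatory gene expression, and Maff is a small Maf protein without a transactivation domain that pairs with CNC factors.

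The sequences just upstream of the start sites are shown for Fos, Fosb, Jun, Junb, Atf3 and Maff. These are the 6 members other than Batf whose windows hold a match to an AP-1 or CRE element or to the first part of a CRE. Through such elements AP-1 and CREB/ATF proteins act on the same genes. All 9 members matched the RefSeq promoter table (GRCm38.p6), with 11 start sites in all, and each line gives the 150 bases before the start, 5′ to 3′ on the gene's strand, with the matches in capitals.
Fos, chr12:85473740-85473889, plus strand: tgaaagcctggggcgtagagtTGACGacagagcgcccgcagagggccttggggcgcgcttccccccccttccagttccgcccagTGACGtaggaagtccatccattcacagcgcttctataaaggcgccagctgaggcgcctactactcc
Fosb, chr7:19310046-19310195, minus strand: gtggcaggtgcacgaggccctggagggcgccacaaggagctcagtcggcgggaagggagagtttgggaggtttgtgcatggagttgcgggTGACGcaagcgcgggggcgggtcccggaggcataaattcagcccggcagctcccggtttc
Jun, chr4:95052223-95052372, minus strand: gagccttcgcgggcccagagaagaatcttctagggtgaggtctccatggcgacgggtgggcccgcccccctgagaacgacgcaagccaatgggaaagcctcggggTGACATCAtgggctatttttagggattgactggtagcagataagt
Junb, chr8:84978749-84978898, minus strand: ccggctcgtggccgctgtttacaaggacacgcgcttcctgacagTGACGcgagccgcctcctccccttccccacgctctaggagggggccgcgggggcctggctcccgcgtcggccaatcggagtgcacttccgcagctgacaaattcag
Atf3, chr1:191183334-191183483, minus strand: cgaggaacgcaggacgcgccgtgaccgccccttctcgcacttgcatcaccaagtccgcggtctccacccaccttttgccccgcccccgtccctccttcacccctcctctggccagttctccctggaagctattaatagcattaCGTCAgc
Maff, chr15:79347370-79347519, plus strand: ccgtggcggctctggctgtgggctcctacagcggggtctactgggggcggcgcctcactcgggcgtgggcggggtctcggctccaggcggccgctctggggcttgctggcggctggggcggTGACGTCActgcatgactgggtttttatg
Capitals mark TGACG, the first part of a CRE (or CGTCA, the same letters on the other strand), TGACATCA in Jun, the altered TRE known from the Jun promoter, and a whole TGACGTCA in Maff. Windows of 300 bases, 250 before and 50 after the start, were searched on both strands, and TGACG also lies inside TGACGTCA. TGACG was found in Fos, Fosb, Junb, Atf3, Batf and Maff, and in 20.8% of all 32851 promoters. Counted by gene, with any start site of a gene, it was found in 23% of 27025 genes. The 2 copies in Fos began 129 and 66 bases before the start, that of Fosb 60 bases and that of Junb 106 bases before it. The whole TGACGTCA, present in 1.79% of promoters, occurred at 1 of the 3 Maff start sites, 29 bases upstream. TGACATCA, present in 3.62%, occurred in Jun, 45 bases upstream, and at another Maff start site at the same distance. No member's window held TGACTCA (5.2% of promoters) or the CArG box of serum response factor (1.63%), and the windows of Fosl2 and Jund held none of the 5 motifs, which says only that these letters are not in these windows. The single Jund window ended at chr8:70697788, upstream of the counted Jund gene, which begins at 70698949. The bases next to that gene start were therefore not searched. TGACG and TGACATCA were added to the search after the sequences had been read.

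Compared with control, 5 of the 9 members rose in NPmut HSPCs and none fell: Fos (log2 fold change 3.38), Atf3 (4.46), Maff (2.80), Fosl2 (1.58) and Junb (1.48). Atf3 was tested only because of its NPmut level, so its calls in comparisons with NPmut are no independent support. A gene was called where the Benjamini-Hochberg adjusted p of edgeR's quasi-likelihood test was below 0.05 over all 17795 genes and the fold change was at least 2. That rule was met by 2.32% of genes in the higher direction and by 656 of the 17795 in the lower. The median log2 fold change was 1.58 over the 9 members and 0.01 over all genes. The 4 NPmut mice were not alike. The sample titles carry numbered identifiers. That of NPmut mouse 3 falls within the run of the 9 injected mice. Those of NPmut mice 1, 2 and 4 lie below that run. What these identifiers mark is not stated, and any part of collection time or handling was not tested. Mice 1, 2 and 4 had 8, 9 and 8 members above every control mouse, whereas NPmut mouse 3 had 3 members above and 6 below every control mouse, against 30.3%, 40.3%, 34.3% and 29.9% of all tested genes above every control in mice 1, 2, 4 and 3. NPmut mouse 3 was the lowest of the 4 for 8 of the 9 members and for 18.2% of all tested genes. Without it, 8 of the 9 members were called, all but Batf. NPmut mouse 3 was the lowest for each of these 8, so its omission raises their fold changes and is no independent support. The share of all genes called in that fit is not given here. Leaving out NPmut mouse 4 or any 1 of the 3 control mice left 2 calls (Junb and Maff), and leaving out NPmut mouse 1, NPmut mouse 2, NrasG12D mouse 1 or NrasG12D mouse 3 left 3 (these and Fosl2). Only Junb and Maff were called in all 13 fits that omitted 1 mouse.

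**Figure D1:**
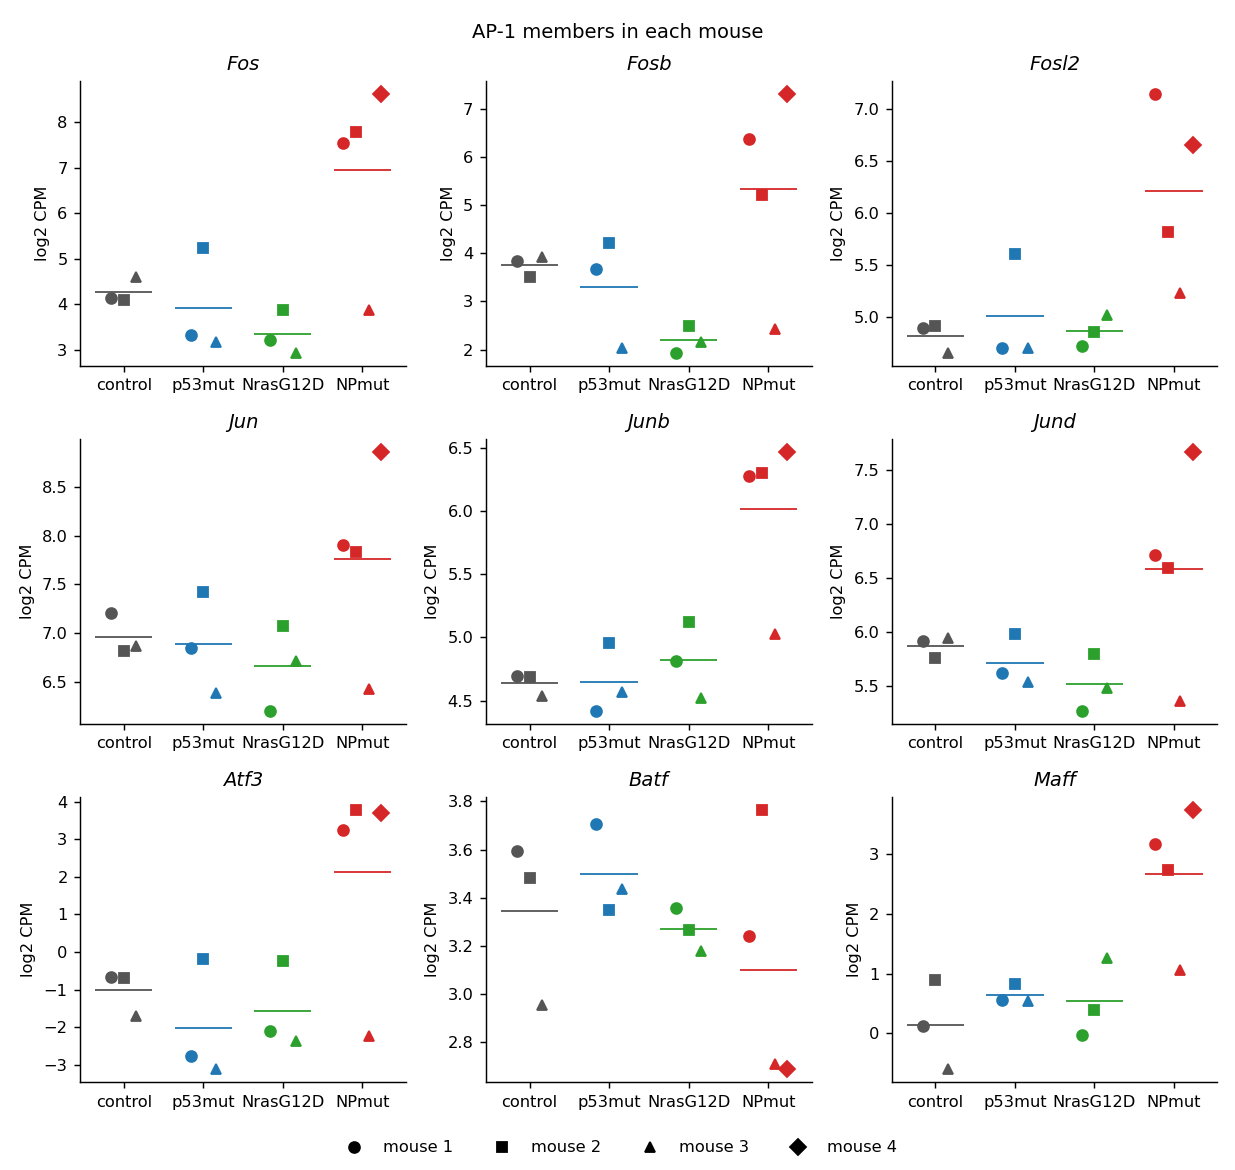
Level of each member in each of the 13 mice, as log2 CPM (scaled by TMM, prior count 2), with 1 panel per gene, its own vertical scale, and horizontal lines at group means; symbols give the mouse number. NPmut mice 1, 2 and 4 lie above the 9 mice of the other groups in every panel but Batf, while NPmut mouse 3 lies among or below those mice for most members.

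Fos, the founding member of its family and a standard readout of ERK activity, gave 17.5, 16.9 and 24 CPM (counts per library, scaled to a common library size) in control mice 1 to 3. In NPmut mice 1 to 4 it gave 186, 218, 14.6 and 392 CPM. The 3 values other than that of mouse 3 were at least 4.98 times the highest value among the 9 injected mice (37.4 CPM, in p53mut mouse 2), and mouse 3 was below all controls, so the groups overlapped. The log2 fold change was 3.38 ± 0.94 (SE, edgeR adjusted p = 0.0468), and it was 3.77 without NPmut mouse 3 (adjusted p = 0.00161). The Fos call was not stable: over the omission of each mouse the adjusted p ranged from 0.00161 to 0.141, and 17 of 23 alternatives lost the call, with log2 fold changes between 2.15 and 3.77 over the 23 and adjusted p up to 0.496. Among them were the fits without the filter, on the compared groups alone, with the replicate block and with the background reads described further on. Fosb, a slower and more stable relative of Fos, read 14.2, 11.2 and 15.2 CPM in controls and 83.9, 37.4, 5.31 and 160 CPM in NPmut mice. Mouse 3 was again the one value below every control. The Fosb difference of 2.39 ± 0.89 did not pass the test (edgeR adjusted p = 0.123), but did without NPmut mouse 3 (2.78, adjusted p = 0.00799). Over the omission of each mouse the edgeR adjusted p of Fosb ranged from 0.00799 to 0.269. Fosl2, which encodes FRA-2 and lacks the strong activation domain of Fos, gave 29.5, 30.0 and 25.1 CPM in controls against 142, 56.4, 37.4 and 101 CPM in NPmut. All 4 NPmut values exceeded all controls, and the rise was 1.58 ± 0.39 (edgeR adjusted p = 0.0226), a call that 9 of 23 alternatives lost.

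Jun, the main partner of the Fos proteins, gave 148, 113 and 117 CPM in control mice. Its NPmut values were 240, 228, 86.2 and 464 CPM, and mouse 3 was below every control. The log2 fold change of 1.02 ± 0.45 did not pass the test (edgeR adjusted p = 0.184), and without NPmut mouse 3 it was 1.30 (adjusted p = 0.0187). Over the omission of each mouse the edgeR adjusted p of Jun ranged from 0.0187 to 0.377. Junb, which can hold Jun activity in check and which myeloid progenitors need for restrained growth, gave 25.8, 25.6 and 23.1 CPM in controls and 77.6, 78.8, 32.5 and 88.2 CPM in NPmut mice. Every NPmut mouse exceeded every control, mouse 3 by the smallest margin, and the rise of 1.48 ± 0.28 had the lowest adjusted p of the 9 members (edgeR, 0.0044) and lost its call in 1 of 23 alternatives. Jund, the most constitutively expressed Jun gene, read 60.1, 53.9 and 61.5 CPM in controls and 105, 96.3, 41 and 202 CPM in NPmut mice. Its difference of 0.92 ± 0.38 did not pass (edgeR adjusted p = 0.152), and without NPmut mouse 3 it was 1.20 (adjusted p = 0.00671). Over the omission of each mouse the edgeR adjusted p of Jund ranged from 0.00671 to 0.299.

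Atf3 was close to undetected outside NPmut. Controls held 9, 8 and 4 counts, the p53mut mice 0, 10 and 0, and the NrasG12D mice 2, 11 and 1, or at most 0.737 CPM in any of the 9 mice. NPmut mice 1, 2 and 4 held 186, 351 and 150 counts, or 9.40, 13.5 and 12.7 CPM, and mouse 3 held 2 counts (0.107 CPM). Atf3 thus divided the NPmut mice most widely, with a ratio of 87.6 between the second lowest and the lowest mouse, though that ratio rests on the 2 counts of mouse 3. The log2 fold change was 4.46 ± 1.28 (edgeR adjusted p = 0.0449), from control counts too low for its size to be precise, and 13 of 22 alternatives lost the call. Maff gave 0.977, 1.73 and 0.561 CPM in controls, from 11 to 28 counts, and 8.84, 6.52, 1.98 and 13.1 CPM in NPmut mice. The 4 NPmut values were above all controls, and the rise was 2.80 ± 0.57 (edgeR adjusted p = 0.0065), a call lost in 1 of 23 alternatives. Batf was the exception among the members. It read 12, 11.1 and 7.64 CPM in controls and 9.35, 13.5, 6.43 and 6.28 CPM in NPmut mice, so the ranges overlapped, and its log2 fold change was −0.19 ± 0.25 (edgeR adjusted p = 0.687). NPmut mouse 4, the highest for Fos, Fosb, Jun, Junb, Jund and Maff, was the lowest for Batf.

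In all, Fosl2, Junb and Maff were the 3 members with every NPmut mouse above every control, an arrangement seen in 10.4% of all tested genes. Jun overlaps the antisense gene Junos, Jund overlaps Gm11175 and Junb overlaps the opposite-strand gene Prdx2, and whether counting used strand is not given in the sources used here. Junos and Gm11175 had at most 1.98 and 2.38 CPM in any mouse, and their log2 fold changes between NPmut and control were −0.02 ± 0.54 (edgeR adjusted p = 0.984) and 1.38 ± 0.42 (adjusted p = 0.0486). Prdx2, a peroxiredoxin, had 68.0 to 106 CPM over the 13 mice, and its log2 fold change between NPmut and control had the sign opposite to that of Junb (−0.27 ± 0.12, edgeR adjusted p = 0.176).

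**Figure D2:**
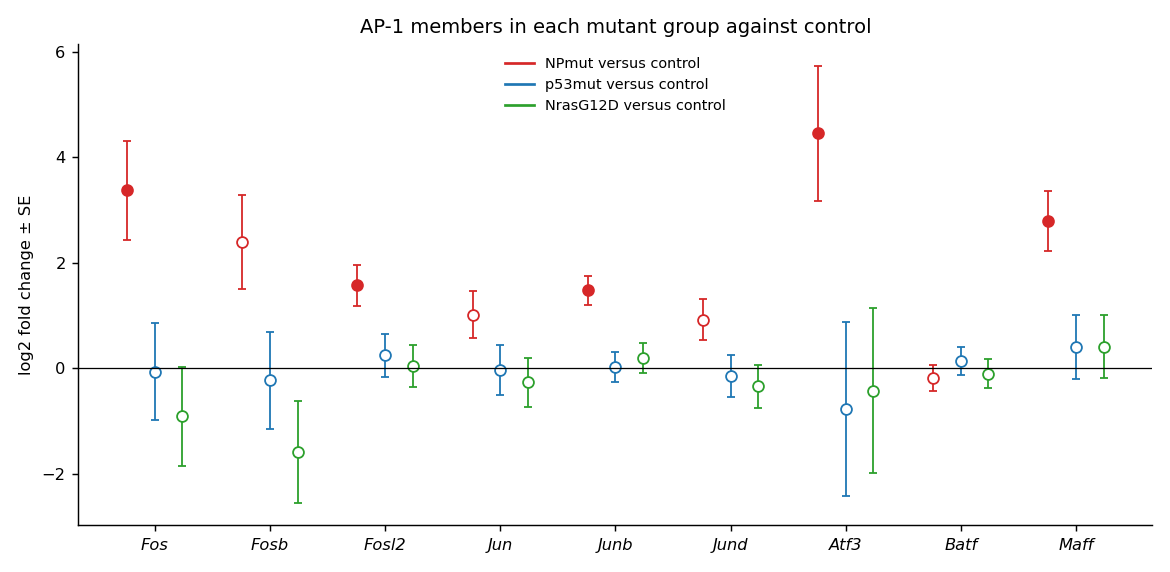
Log2 fold change of each member against control in NPmut (red), p53mut (blue) and NrasG12D (green) mice, with a standard error derived from the edgeR F statistic. Points are filled where the test was passed and open where it was not. Filled points occur for Fos, Fosl2, Junb, Atf3 and Maff in NPmut and nowhere in the single mutants, and the 3 sets share the same control mice.

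No member passed the test in either single mutant. In p53mut against control, edgeR called 0 of 9 members, 0 of 9 had an unadjusted p below 0.05, DESeq2 also called 0, and 0% of all genes were called higher. The p53mut log2 fold changes lay between −0.77 (Atf3) and 0.40 (Maff). p53mut mouse 2 stood above its group, with Fos at 37.4 CPM beside 9.89 and 8.92 CPM in mice 1 and 3, and it exceeded every control for 7 of the 9 members, compared with 26.2% of all tested genes in that mouse. Without it, p53mut still had 0 calls among the members.

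In NrasG12D against control, edgeR and DESeq2 each called 0 of 9 members, 0 had an unadjusted p below 0.05, and 0.00562% of all genes were called higher. Fos and Fosb were the members in which all 3 NrasG12D mice lay below all 3 controls, an arrangement seen in 10.2% of tested genes. Fos read 9.15, 14.4 and 7.51 CPM in NrasG12D mice, a log2 fold change of −0.91 ± 0.94 (edgeR adjusted p = 0.845). Fosb read 3.70, 5.50 and 4.34 CPM, a log2 fold change of −1.59 ± 0.97 (edgeR adjusted p = 0.693). When only the control and NrasG12D mice were fitted, the spread was no longer shared with the NPmut mice and Fosb was called lower (−1.60). The other members gave NrasG12D differences between −0.43 (Atf3) and 0.41 (Maff).

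Set against the single mutants, which share the same 4 NPmut mice, most of the same members rose. In NPmut against NrasG12D, 6 of 9 members rose (Fos 4.29 ± 1.00, Fosb 3.98 ± 0.99, Fosl2 1.53 ± 0.39, Junb 1.28 ± 0.27, Atf3 4.89 ± 1.34 and Maff 2.39 ± 0.56), where 1.81% of all genes were called higher. Fosb had not passed against control, and its edgeR adjusted p was 0.034 here. These calls rested on the NrasG12D mice as well: leaving out NrasG12D mouse 1 left 0 calls, leaving out mouse 2 left 1 (Junb), leaving out mouse 3 left 1 (Maff), and leaving out NPmut mouse 2 left 3. In NPmut against p53mut, 5 of 9 rose, the same 5 as against control, where 2.15% of all genes were called higher. Fos differed by 3.44 ± 0.95 there, Junb by 1.46 ± 0.28 and Maff by 2.40 ± 0.56. Without NPmut mouse 3 that count was 8, without p53mut mouse 1 or 3 it was 1 (Junb), and without any 1 of the control mice, the NrasG12D mice or the other NPmut mice it was 2 or 3. Jun and Jund passed neither comparison (edgeR adjusted p between 0.0654 and 0.184), and Batf differed by −0.09 and −0.32.

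Whether the double mutant departs from the sum of the single mutants was tested with the interaction of both alleles on the log2 scale. None of the 9 members passed in edgeR, which called 0.405% of all genes higher, although 7 had an unadjusted p below 0.05 (16.1% of all tested genes did). DESeq2 called 3 members (Fos, Fosb and Junb), and its share over all genes is not given here. The estimates were 4.36 ± 1.32 for Fos, 4.21 ± 1.32 for Fosb and 1.26 ± 0.39 for Junb, and the lowest edgeR adjusted p was 0.125, for Junb. Without NPmut mouse 3, 5 members passed in edgeR (Fos, Fosb, Junb, Jund and Atf3), and the share of all genes in that fit is not given here. Over the omission of each mouse the edgeR adjusted p reached 0.292 for Fos, 0.295 for Fosb and 0.284 for Junb. Injection cannot be told apart from this interaction, since NPmut was the one group that received none.

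Divided by gene length, the members' levels can be compared with each other. In control mice the order of mean RPKM (counts scaled by library total and by kilobases of exon, n = 3) was Jun 40.8 ± 6.18 (SD), Jund 36.4 ± 3.39, Junb 11.2 ± 0.413, Fos 8.60 ± 1.98, Batf 7.50 ± 1.53, Fosl2 3.01 ± 0.214, Fosb 2.25 ± 0.396, Maff 0.431 ± 0.225 and Atf3 0.193 ± 0.0804. Jun and Jund, Junb and Fos, Fos and Batf, and Maff and Atf3 are neighbours in that order whose 3 values overlap. In NPmut mice (n = 4) Fos came first, at 80.9 ± 61.3 RPKM, beside Jun at 75.4 ± 45.4 and Jund at 63.0 ± 37.4, and these 3 overlapped widely because of the spread between mice. Fos made up 6.43%, 7.22% and 9.75% of the summed RPKM of the 9 members in the controls and between 3.80% and 11.6% in the single mutants. Its share was 27.0%, 32.4% and 31.9% in NPmut mice 1, 2 and 4, and 7.58% in mouse 3, within the range of the 9 injected mice.

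The balance of the families moved with it. The summed RPKM of the Fos family divided by that of the Jun family was 0.136, 0.153 and 0.182 in controls, and between 0.104 and 0.228 over the 9 injected mice. It was 0.624, 0.640 and 0.665 in NPmut mice 1, 2 and 4. NPmut mouse 3 had a ratio of 0.166, between the control values. The NPmut mice that had more AP-1 RNA thus also had it in a different proportion, with Fos contributing more of the sum.

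**Figure D3:**
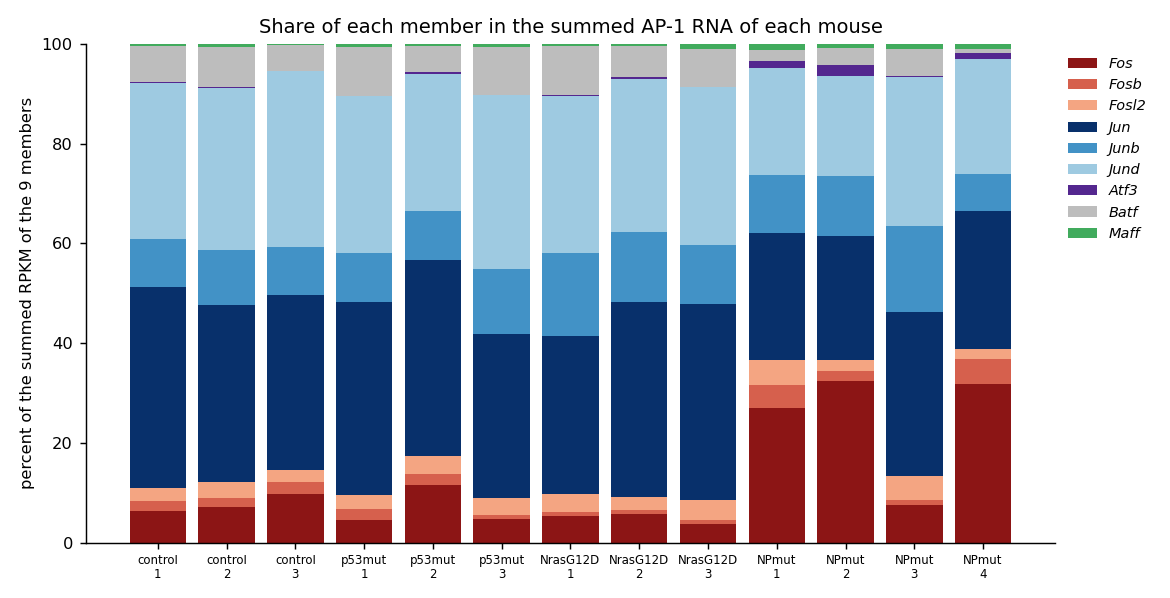
Share of each member in the summed RPKM of the 9 members, in percent, with 1 stacked bar per mouse. Fos (dark red) takes between 27.0% and 32.4% in NPmut mice 1, 2 and 4 and at most 11.6% in the other 10 mice, where Jun and Jund together take most of each bar.

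Other genes of the same families and of the pathway were taken from lists written with earlier results of these data known. Of 12 other AP-1 and Maf genes, among them Fosl1, Jdp2, Atf2 and Mafg, 10 were tested and none was called in any of the 6 comparisons by edgeR. In NPmut against control, 5 of these 10 had an unadjusted p below 0.05, as did 25.6% of all tested genes, and their median log2 fold change was 0.39. Among 5 tested CNC partners of the small Maf proteins (Nfe2, Nfe2l1, Nfe2l2, Bach1 and Bach2), none was called and none had an unadjusted p below 0.05 in that comparison, with a median of 0.05, although Maff rose. Of 20 listed kinases and transcription factors upstream of Fos and Jun, 19 were tested and none was called in NPmut against control (7 with an unadjusted p below 0.05, against the same 25.6%), with a median of 0.15. The list holds the ERK, JNK and p38 kinases, their activators, serum response factor and its ternary complex factors, and RNA levels of kinases do not measure their activity.

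Immediate-early genes outside AP-1 rose with the members. In NPmut against control, 10 of the 16 tested genes were higher and none lower, with a median of 1.74. Those that differed most were Nr4a1, an orphan nuclear receptor (4.94 ± 1.03), Egr3, a zinc finger factor (4.92 ± 1.07), Nr4a3, a relative of Nr4a1 (3.81 ± 1.01), and Klf4, a Kruppel-like factor of monocytes (2.85 ± 0.59), each with an edgeR adjusted p between 0.0103 and 0.0333. Egr3 had at most 0.590 CPM in any mouse outside NPmut and passed the filter on low counts only through its NPmut level. Its call, 1 of the 10, is therefore no independent support. Nr4a1 gave 198, 90.3 and 125 CPM in NPmut mice 1, 2 and 4 and 6.27 CPM in mouse 3, beside 1.95, 4.51 and 3.77 CPM in controls. In both Nr4a1 and Klf4, NPmut mouse 3 was above every control, and for Klf4 it had 20.9 CPM against 3.85 to 7.23 CPM in controls. NPmut mouse 3 was the lowest of the 4 NPmut mice for 15 of the 16 immediate-early genes. Myc, itself an immediate-early gene and an ERK target, did not pass (−0.19 ± 0.10, edgeR adjusted p = 0.286) and is named after its value was seen.

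Of 18 genes that textbooks list as AP-1 targets, 14 were tested, and 7 were higher and none lower in NPmut than in control, with a median of 1.76. Ccl2, among the 14, passed the filter on low counts only through its NPmut level. Among the 7 called genes the largest differences were in the chemokine gene Ccl3 (3.06 ± 0.70), the cytokine gene Il1b (2.77 ± 0.80), Spp1, which encodes osteopontin (2.43 ± 0.59), and Tnf (2.41 ± 0.38), each with an edgeR adjusted p between 0.00136 and 0.0396. Among those that did not pass, the matrix protease gene Mmp9 gave −0.82 ± 0.66 (adjusted p = 0.475), and the stress gene Hmox1 gave −0.06 ± 0.54 (adjusted p = 0.957), both named after their values were seen. For Ccl3, NPmut mice 1, 2 and 4 had 10.3, 15.9 and 17.8 CPM and mouse 3 had 1.07 CPM, within the control range of 0.680 to 1.72 CPM. Tnf was less divided, with 21.6, 16.6, 5.63 and 17.8 CPM in NPmut mice 1 to 4 and at most 3.65 CPM in controls. NPmut mouse 3 was the lowest of the 4 for 9 of the 14. In the single mutants none of the genes on these 5 lists was called by edgeR.

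**Figure D4:**
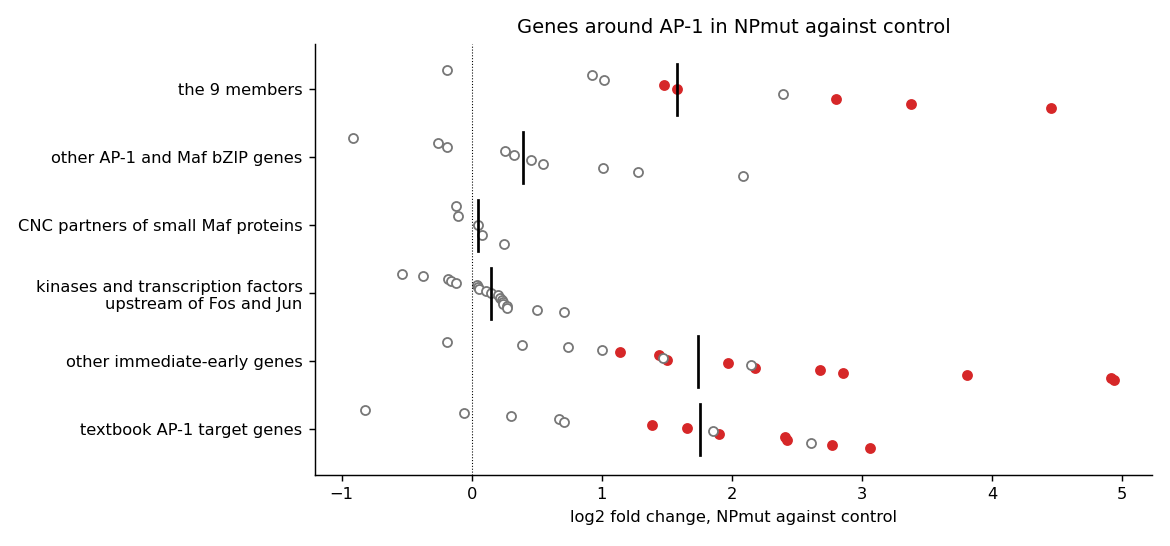
Log2 fold change in NPmut against control for the 9 members and for each tested gene of the 5 related lists, with called genes in red, others open, and a black bar at the median of each list. The medians of the members, the other immediate-early genes and the textbook targets are 1.58, 1.74 and 1.76, and those of the other AP-1 and Maf genes, the CNC partners and the upstream genes are 0.39, 0.05 and 0.15.

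The genes other than AP-1 and Maf genes whose log2 CPM followed Fos most closely over the 13 libraries were Zfp36 (Pearson r = 0.973), which encodes an mRNA-destabilizing protein, Ccl3 (0.973), which is also on the list of AP-1 targets, Trib1 (0.966), Btg2 (0.964) and Rilpl2 (0.963). For Junb they were Grasp (0.972), Pmaip1 (0.970), Btg1 (0.968), Dusp5 (0.967), a phosphatase that acts on ERK, and Nr4a1 (0.964). Zfp36 had 124, 115, 27.7 and 217 CPM in NPmut mice 1 to 4 and 28, 22.2 and 29.7 CPM in controls, so it divided the NPmut mice as Fos did. Among the members themselves, r was between 0.78 and 0.98 for every pair without Batf, the highest for Jun with Jund, and between −0.28 and −0.06 for the pairs with Batf. These values describe 13 libraries in which 3 NPmut mice stand apart, and carry no test.

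The sorted population was labelled Lin- cKit+, and Kit, the gene of the sorted marker, gave 370, 288, 450 and 379 CPM in NPmut mice 1 to 4 and 498 to 712 CPM in the 9 other mice. Its log2 fold change against control was −0.54 ± 0.15 (edgeR adjusted p = 0.0322), short of the fold minimum for a call. Bulk RNA cannot tell a change in the share of a cell type from a change in RNA per cell, and the markers of several cell types differed between NPmut and control. Of 10 monocyte and macrophage markers 4 were higher in NPmut (Csf1r, Ccr2, F13a1 and Cx3cr1), and the list's summed level was 585 to 673 CPM in controls, 517 to 971 in p53mut, 461 to 718 in NrasG12D and 1419 to 2348 in NPmut mice. Csf1r, Ly6c2, Ccr2 and Lyz2, which define these cells, were detected in all 13 mice, and Fcgr1 was at 0 in 2. p53mut mouse 2, which had the highest Fos of the 9 injected mice, also had the highest monocyte sum of them (971 CPM). Within NPmut the order was not the same: mouse 3, with 14.6 CPM of Fos, had a monocyte sum of 1528 CPM, and mouse 4, with 392 CPM of Fos, had 1419 CPM. Cd14, a monocyte marker singled out after its values were seen, was itself divided as Fos was, at 15.5, 21.2, 0.590 and 8.06 CPM in NPmut mice 1 to 4. The neutrophil markers, of which 1 of 9 tested was higher, summed to 204, 342, 92.2 and 378 CPM in those mice and to 154 to 414 CPM in controls. NPmut mouse 3 was the lowest of the 4 NPmut mice for 8 of these 9 markers, the same count as for the members. Megakaryocyte markers were lower (5 of 5 tested, beside 656 of all 17795 tested genes), with sums of 125 to 200 CPM in controls and 13.9 to 69.0 CPM in NPmut mice. Mast cell and basophil markers (2 of 7 tested lower) summed to 217 to 282 CPM in controls and 93.5 to 189 CPM in NPmut, and erythroid markers (2 of 9 lower, Gata1 and Klf1) to 505 to 735 CPM and 264 to 505 CPM. Of 6 tested dendritic cell markers 3 were higher (Flt3, Siglech and Itgax) and 1 lower (Zbtb46), with sums of 94.3 to 132 CPM in controls and 142 to 294 CPM in NPmut mice. Siglech passed the filter on low counts only through its NPmut level, so its call is no independent support. Receptors of smell and pheromones are not expected in HSPCs, and the background counts assigned to these olfactory and vomeronasal genes summed to 107 to 198 CPM in controls, 62.0 to 144 in p53mut, 39.2 to 46.5 in NrasG12D and 18.2 to 59.8 in NPmut. With the log2 of this sum as a term in the fit, 0 of 9 members were called in NPmut against control, and Fos had a log2 fold change of 2.15 (edgeR adjusted p = 0.473). Every NPmut sum was below every control sum, so in this comparison the term and the group difference cannot be fully told apart. The part of cell composition and of such background counts in the members' values was not tested otherwise.

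**Figure D5:**
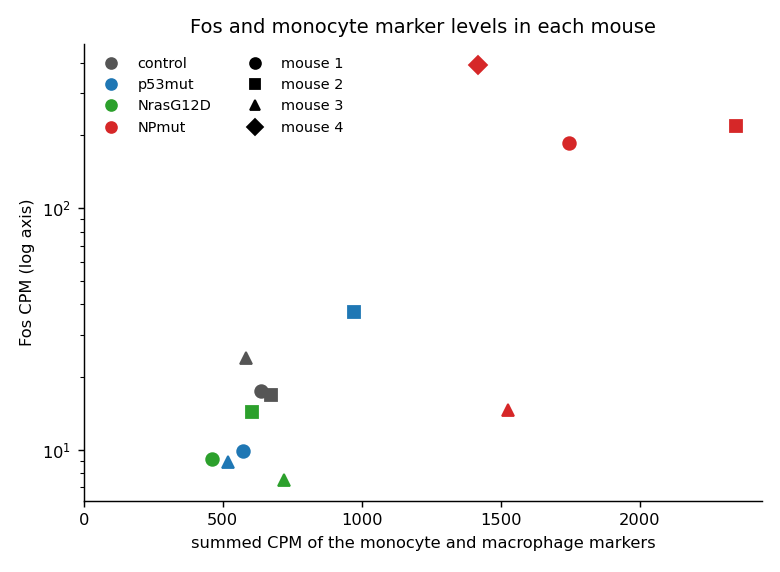
Fos level (CPM, log axis) against the summed CPM of the 10 monocyte and macrophage markers (linear axis), with 1 point per mouse. The 4 NPmut mice all lie at 1419 CPM or more of the markers, and mice 1, 2 and 4 are at 186 CPM of Fos or more while mouse 3 is at 14.6 CPM.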

How the data were processed

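RNA was extracted from sorted cells with an RNeasy Micro Kit and made into libraries with the SMARTer Stranded Total RNA-Seq Pico kit. The authors deposited raw counts per Ensembl gene, 1 table for 13 samples. Per the submitters' processing notes, STAR 2.6.1d, R 3.6.1, DESeq2 1.26.0 and GRCm38.p6 were used. The counting program and its strand setting are not given in the sources used here. Total RNA libraries without molecular identifiers do not count independent molecules.

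The deposited counts were fitted in edgeR 4.0.16 (limma 3.58.1, R 4.3.3) with TMM scaling, filterByExpr, robust quasi-likelihood dispersion and 1 mean per group over all 13 libraries. P-values were adjusted by Benjamini-Hochberg over 17795 genes, a call also needed a log2 fold change of 1, and the fit was tested on simulated data. The standard error of a log2 fold change was taken as its absolute value divided by the square root of the edgeR F statistic. Each sample is labelled as 1 mouse. RPKM used library totals and GENCODE M21 exonic lengths. DESeq2 1.42.0, other scalings, filters, sample sets and terms, a replicate block and the omission of each mouse were alternatives. Scaling by library totals moved the median log2 fold change of all genes in NPmut against control to −0.11. Members and lists were chosen with earlier results of these data known. Named were the 9 members, called genes of the 2 related gene family lists, the 4 called genes that differed most in the other lists, and the 5 genes most like Fos and Junb by Pearson r where the log2 CPM averaged 1 or more. Replicate numbers paired p53mut and control mice by the deviations of same-numbered mice (r = 0.17, 0.166 and 0.156), although the labels do not say what a number marks, and the block left p53mut at 0 calls among the members. The mutant Nras and p53 alleles cannot be checked from gene counts, and Nras gave 50.4 to 65.8 CPM in all mice.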

Additional observations from a re-analysis of the deposited data

Results flagged for a closer look

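Within the 4 NPmut mice, 1 value stood far from the other three for a pair of members. For Junb, the log2 CPM of NPmut mouse 3 was the lowest, and its gap to the next mouse was 0.870 of the group's whole range. For Atf3 the same mouse was the lowest, with a gap of 0.913 of the range. Both exceed the limit of Dixon's test at the 95% level for 4 values, which chance alone passes in about 1 of 20 groups. The gap for Atf3 rests on 2 counts in that mouse. Without it, Junb differed between NPmut and control by 1.71 (edgeR adjusted p = 9.44e-05) and Atf3 by 4.87 (adjusted p = 0.00213), on the log2 scale.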

How the results depend on the processing

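Against control, the 5 calls in NPmut became 2 without a filter on low counts (Junb and Maff), 2 when only the compared groups were fitted, 3 with sex as a term and 0 with the background receptor reads as a term. With the replicate block the count was 3 (Junb, Atf3 and Maff), and 2 with the block on the compared groups alone. Leaving out each mouse in turn gave 2 to 8. Against NrasG12D, the 6 calls became 2 without the filter, 1 in the compared groups alone (Fos), 3 with the replicate block, 2 with the block on the compared groups and 2 with the background reads, and 0 to 8 on leaving out each mouse. Against p53mut, the 5 calls became 2, 2, 3, 3 and 0 under those same settings, and 1 to 8 on leaving out each mouse. NrasG12D against control had 1 call (Fosb) when the compared groups were fitted alone, with or without the block, and 0 on leaving out each mouse. The interaction had 2 calls without the filter, 3 with DESeq2 and 0 to 5 on leaving out each mouse, and p53mut had 0 throughout. Against control, the background term turned the direction of Fosb (−0.47), Jun (−0.077), Jund (−0.37) and Batf (0.16), none of them called. The background sums of NPmut mice overlapped with neither control nor p53mut, so there the term and the group difference cannot be fully told apart. Against NrasG12D, Batf was turned by the replicate block (0.0035) and ranged from −0.37 to 0.040 on leaving out each mouse. The compared groups alone hold fewer samples, and an unfiltered table tests more genes; other causes were not tested. NPmut mouse 4 has no partner under the block, and the numbers did not pair NPmut with control mice (r = −0.044, 0.253 and −0.0337). A minimum of 10 counts in every library left Atf3 untested.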
